A study of Drosophila palustris with 2 samples.

Results

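The gene models with the most reads in adult Drosophila palustris were those whose sense CPM, the sense reads of a model per 1000000 sense reads of its library, averaged over 1000 in 2 RNA libraries, with the libraries less than 2 apart on the log2 scale. Members were thus chosen by these measured sense counts. The rule kept 153 of 20053 annotated models (0.763%). Drosophila palustris belongs to the quinaria group of fruit flies, which includes many mushroom feeders. Both libraries formed a single group: whole bodies of adults of both sexes, pooled at 10 to 20 flies, from stocks kept on a cornmeal, sucrose and yeast diet at room temperature. Polyadenylated RNA was prepared with a directional kit, and the reads were collected as evidence for gene prediction in a draft genome. No strain, age, sex, tissue or treatment was contrasted, so the pools have no comparison group, and a whole-body pool does not separate more cells of a type from more RNA per cell.

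In an adult fly, a small part of the genes supplies much of the polyadenylated RNA. Ribosomal proteins, respiratory enzymes, muscle filament proteins, digestive enzymes and, in females, yolk and eggshell proteins are textbook sources of such RNA. The models here carried locus tags without gene names or coordinates, so none of these roles could be given to a tag. The values that chose the members, their sense counts and the ratio of the 2 libraries, are described below without a test. The antisense reads, the reads lost when strand was ignored and the order of the tags took no part in the choice. Antisense and lost reads given as shares of a model's reads are not independent of it, however, because the sense reads that chose the members are in the divisor. A low share in the members is therefore partly fixed by the choice, and such shares are set beside other models only as a description.

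The 153 members held 31.7% ± 0.597 of the sense gene reads (SD, n = 2). In replicate 1 they took 14982096 of 46610675 sense reads, or 32.1% (95% Wilson interval 32.1 to 32.2). In replicate 2 they took 12215007 of 39026623, or 31.3% (31.3 to 31.3). The 4 members above 5000 CPM held 3.73% of the sense reads in the first library and 3.11% in the second. The 53 members from 2000 to 5000 CPM held 14.8% and 14.5%, and the 96 from 1000 to 2000 CPM held 13.7% in each library. Most of the members' reads thus lay outside the few highest models: 46 members in replicate 1 and 48 in replicate 2 were needed to reach 50% of them.

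Levels fell steeply over the first few members and slowly after that. The lowest, median and highest member stood in replicate 1 at 442, 1688 and 12669 CPM, and in replicate 2 at 863, 1751 and 9653 CPM. The middle 50% of members lay between 1288 and 2325 CPM in replicate 1 and between 1275 and 2348 CPM in replicate 2. Transcript lengths do not enter CPM, so the order is one of reads and not of transcript numbers.

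**Figure D1:**
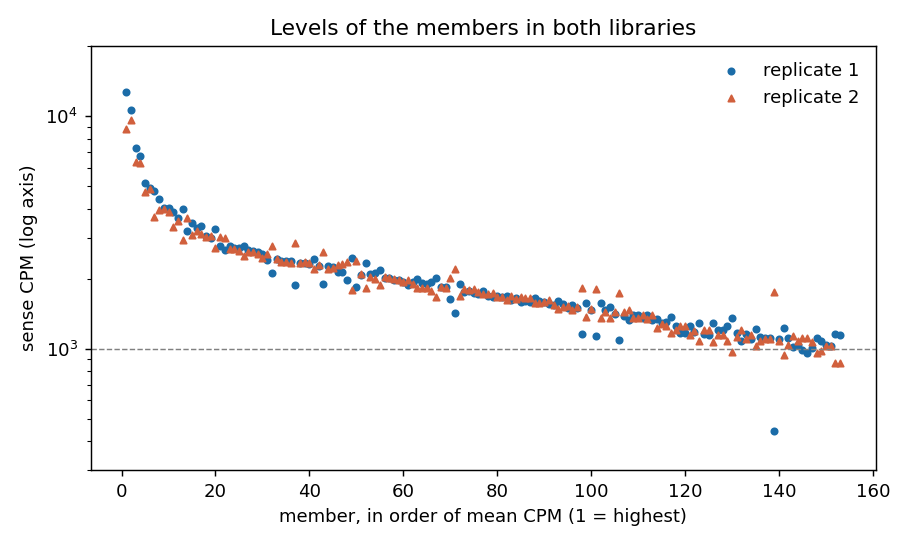
Sense CPM (log axis) of each of the 153 members in replicate 1 (circles) and replicate 2 (triangles), in order of mean CPM, with the 1000 CPM threshold as a dashed line. The 4 leading members stand above 5000 CPM in both libraries, and 1 member near the right end lies at 442 CPM in one library and 1751 CPM in the other.

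The 10 highest members were the 10 highest models of each library. ACLKA6_018112 led with 590499 reads in the first library and 344360 in the second, or 12669 and 8824 CPM. ACLKA6_009032 had 493549 and 376714 reads, or 10589 and 9653 CPM. The order of these 2 models therefore differed between the libraries, with the first ahead in replicate 1 and the second ahead in replicate 2. ACLKA6_000091 followed at 7312 and 6341 CPM and ACLKA6_010541 at 6726 and 6270 CPM, and both kept their place in the order of each library. ACLKA6_001508 stood at 5157 and 4717 CPM, and ACLKA6_012311 at 4920 and 4861 CPM, again with exchanged places. ACLKA6_009872 stood at 4737 and 3697 CPM, in place 7 of replicate 1 and place 10 of replicate 2. Among the last of the 10, ACLKA6_001769 lay at 4401 and 3943 CPM, ACLKA6_001770 at 4026 and 3993 CPM, and ACLKA6_013320 at 4023 and 3867 CPM. Neighbours in this order were not always separated beyond the spread between libraries, since ACLKA6_001769 was above ACLKA6_001770 in replicate 1 and below it in replicate 2.

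At the other end, the threshold cut through a continuous range of levels. The 3 members just inside it were ACLKA6_004145 at 1025 and 1022 CPM, ACLKA6_014581 at 1158 and 863 CPM, and ACLKA6_009123 at 1139 and 869 CPM. The 3 models just outside were ACLKA6_008828 at 964 and 1012 CPM, ACLKA6_007629 at 1030 and 944 CPM, and ACLKA6_004095 at 966 and 999.9 CPM. Values on both sides of the threshold overlapped within these libraries. In all, 144 members exceeded 1000 CPM in both libraries, 6 in replicate 1 alone and 3 in replicate 2 alone. Of 154 models with a mean above 1000 CPM, the limit on the ratio removed 1, ACLKA6_004814, which had 173 CPM in replicate 1 and 3684 CPM in replicate 2.

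The libraries were close for most members. The median member was 1.05-fold apart, and of the 153 members 107 were within 1.1-fold and 131 within 1.2-fold. For comparison, 30.7% of the 13454 models that reached 10 sense reads per library, called detected below, were within 1.1-fold and 53.6% within 1.2-fold. The median absolute log2 ratio was 0.066 for the members, 0.188 for the 1629 models of 100 to 1000 CPM and 0.211 for the 7492 models of 10 to 100 CPM. Counting error made up little of this distance, at a standard error of 0.0075 on the log2 scale for the median member. With 1 library per pool, differences between flies and between library preparations cannot be told apart. The rule used level and the ratio of the libraries, so the comparison with other models is a description only. Scaling moves these ratios as well. The median log2 ratio was -0.017 for the members and -0.066 for the detected models, and 0.045 and -0.0039 with DESeq2 size factors.

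Only 6 members (3.92%) were at least 1.5-fold apart, and all 6 were higher in replicate 2. Of the detected models, 18.0% were that far apart, 12.6% higher in replicate 2 and 5.41% higher in replicate 1. Because the rule set a limit on this ratio, nothing is read from the count. The farthest apart was ACLKA6_004815, with 20613 and 68345 sense reads, or 442 and 1751 CPM. Its log2 ratio of 1.99 (exact 95% interval 1.96 to 2.01, counting error only) lay just inside the limit. ACLKA6_004795 followed at 1085 and 1741 CPM, a 1.60-fold difference. Toward replicate 1, the largest differences were 1.44-fold for ACLKA6_018112, the leading model, and 1.40-fold for ACLKA6_006135, at 1355 and 970 CPM.

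Apart from ACLKA6_004815, the members at least 1.5-fold higher in replicate 2 fell into a narrow band. ACLKA6_004795, ACLKA6_007761, ACLKA6_006436, ACLKA6_005474 and ACLKA6_006498, of which all but the first were singled out after their values were seen, had log2 ratios from 0.60 to 0.68. No member lay between 0.5 and 0.6, and 1 lay between 0.4 and 0.5. The same band stood out over all detected models. Counts per step of 0.1 fell to 411 models between 0.3 and 0.4, rose to 574 between 0.6 and 0.7, and fell again to 123 between 0.9 and 1. Among models of 100 to 1000 CPM the corresponding numbers were 42, 85 and 5. The labels do not state the proportion of males and females in either pool, and no cause of this band was tested. The distribution of library ratios had a second crowding, at about 1.5- to 1.6-fold higher in replicate 2, which held 5 of the 153 members (3.27%) in its fullest step, against 4.27% of the detected models.

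**Figure D2:**
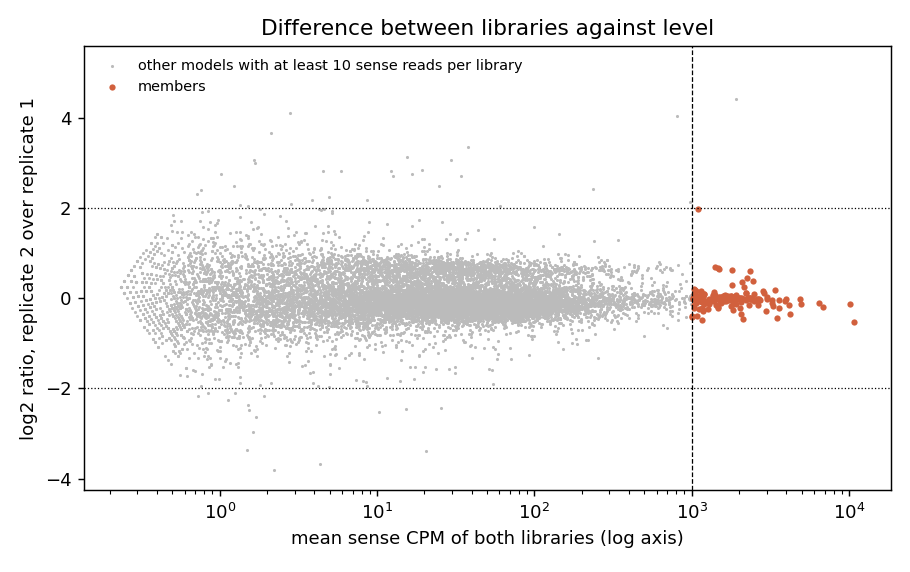
Log2 ratio of replicate 2 over replicate 1 against mean sense CPM (log axis) for the members (orange) and the other detected models (grey), with the rule's limits as lines. Most members lie near 0, 5 lie between 0.60 and 0.68, where the grey points also form a second band, and 1 lies just under 2.

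Antisense reads made up a small share of the members' reads but were not few in number. The median member had 33 antisense reads in replicate 1 and 23 in replicate 2, against 9 and 8 for models of 100 to 1000 CPM and 3 in each library for models of 10 to 100 CPM. In replicate 1 the members had 10994 antisense reads, or 0.0733% of their reads on both strands (95% Wilson interval 0.0720 to 0.0747). In replicate 2 they had 8087, or 0.0662% (0.0647 to 0.0676), for a mean of 0.0697% ± 0.00507 (SD, n = 2). Over all models the antisense share was 0.795% and 0.966%. The members held 2.94% and 2.12% of all antisense gene reads. The direction of the difference between libraries was also unlike that of the sum over all models. Summed over all models the share was higher in replicate 2, and summed over the members it was higher in replicate 1. Models of 100 to 1000 CPM went both ways. Their median share was higher in replicate 1 (0.10% and 0.093%), and their summed share was higher in replicate 2 (0.274% and 0.364%).

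The antisense share was lower in each higher class of level, in classes formed from the sense counts that the share divides by. Models of 10 to 100 CPM had a median share of 0.216% in replicate 1 and 0.220% in replicate 2. Models of 100 to 1000 CPM had medians of 0.10% and 0.093%, and the members 0.0372% and 0.0311%. Summed over reads, the shares were 0.990% and 1.15%, 0.274% and 0.364%, and 0.0733% and 0.0662% in the same order of classes. From member to member such an order was hardly seen: across the 153, the Spearman correlation of mean CPM and antisense share was -0.080, a description over models that share 2 libraries. The members' antisense reads did increase with level (Spearman correlation 0.366). Members of 1000 to 1500 CPM had a summed share of 0.134% and 0.124%, and the other bands of level lay between 0.0318% and 0.0747%. A few members set much of that value: without the 5 members of highest antisense share, named below, the band stood at 0.0694% and 0.0580%. It was still the highest band in each library, since without the same 5 members the other bands lay between 0.0318% and 0.0536%. By median share the 4 members above 5000 CPM were highest, at 0.0404%, against 0.0371% for members of 1000 to 1500 CPM.

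**Figure D3:**
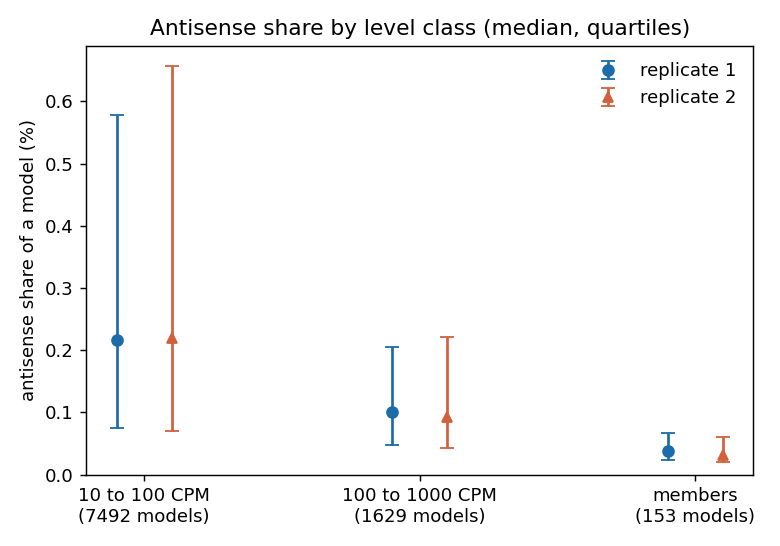
Median antisense share (points) with quartiles (bars), in percent of the reads of a model on both strands, for 3 classes of level in each library among models that reached 10 reads per library over both strands. The medians fall from 0.216% and 0.220% at 10 to 100 CPM to 0.0372% and 0.0311% for the members.

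Each member had at least 1 antisense read in each library, and the shares spanned a wide range. The lowest, median and highest mean shares were 0.0063%, 0.033% and 1.76%. The shares of 97 members were below 0.05% in both libraries, and those of 20 members were above 0.1% in both. A member's share in one library tended to recur in the other, with a Pearson correlation of 0.897 over log10 shares and a Spearman correlation of 0.837 across the 153 models, which are not independent replicates. An antisense share above 1% in each library was found in 1 member (0.654%). That share was exceeded by 21.2% of the 13773 models that reached 10 reads per library over both strands (the tested models), among them many of low depth, and by 50 of 1629 models (3.07%) of 100 to 1000 CPM.

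The member with that share was ACLKA6_015621, which had 968 antisense and 60052 sense reads in replicate 1 and 822 and 41489 in replicate 2. Its antisense share was 1.59% (95% Wilson interval 1.49 to 1.69) and 1.94% (1.82 to 2.08). ACLKA6_000246 followed with 546 and 270 antisense reads, or 1.16% and 0.645%. In ACLKA6_010672 the order of the libraries was the opposite, with 358 and 510 antisense reads, or 0.524% and 0.901%. ACLKA6_006626 had 339 and 269 antisense reads (0.669% and 0.700%), and ACLKA6_009872, the only one of the 5 among the 10 highest models, had 811 and 594 (0.366% and 0.410%). Together these 5 members held 27.5% of the members' antisense reads in replicate 1 and 30.5% in replicate 2. The other 4 lay between 1029 and 1448 CPM on average.

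The lowest shares were close to the limit of counting. ACLKA6_014806 had 65115 sense and 7 antisense reads in the first library, and 52235 and 1 in the second. ACLKA6_001409 had 71741 and 10, then 59979 and 1, and ACLKA6_001337 had 109208 and 13, then 91458 and 6. Among the 10 highest models the shares lay on both sides of the member median: ACLKA6_018112 had 396 and 130 antisense reads (0.0670% and 0.0377%), and ACLKA6_010541 had 66 and 29 (0.0211% and 0.0119%).

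**Figure D4:**
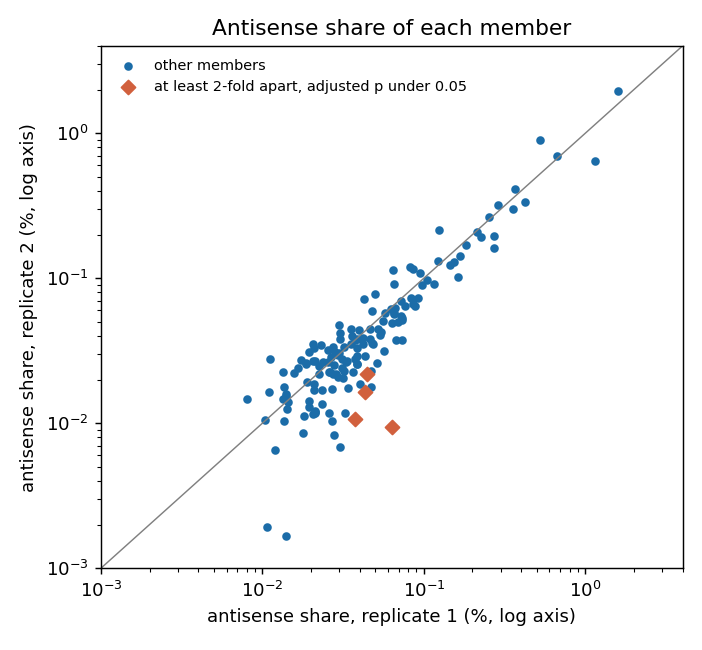
Antisense share of each of the 153 members in replicate 1 and replicate 2 (both log axes, percent of reads on both strands), with the line of equal shares. Diamonds mark the 4 members called apart between libraries, all higher in replicate 1, and 1 member exceeds 1% in both libraries.

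Whether a model's antisense share differed between the 2 libraries was tested with a two-sided Fisher's exact test over the 13773 tested models. It sets one library against the other, and no condition is involved. At an adjusted p under 0.05 and at least 2-fold, 4 members (2.61%) were called, against 2.35% of all models tested, a share near the background. All 4 were higher in replicate 1, where 0.53% of all models were called in that direction and 1.82% in the other. ACLKA6_004817 was the farthest apart, with 37 antisense and 58444 sense reads in replicate 1, and 4 and 42226 in replicate 2 (log2 ratio -2.59, Fisher's exact test, adjusted p = 0.000701). ACLKA6_018176 had 35 and 7 antisense reads, ACLKA6_011454 had 44 and 12, and ACLKA6_014354 had 62 and 26. These 3 lay close to the threshold, with adjusted p from 0.0395 to 0.0485 in Fisher's exact test, and the number of calls was 2 when models with fewer reads were also tested. Without the fold minimum, 14 of 153 members passed, a larger share than the 522 of 13773 (3.79%) among all models tested. The test finds small differences more readily in models with more reads, so this larger share is not read as a result about the members. Of these 14 members, 10 were higher in replicate 1 and 4 higher in replicate 2. They included ACLKA6_000246 (adjusted p = 3.96e-13, higher in replicate 1) and ACLKA6_010672 (adjusted p = 1.13e-12, higher in replicate 2), both from Fisher's exact test.

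Ignoring strand changed the members' counts very little. A model loses a read in unstranded counting when the read also overlaps an annotated exon on the other strand, so the loss measures overlap with opposite-strand models. Summed over the members, 1866 reads (0.0124%) were lost in replicate 1 and 1448 (0.0118%) in replicate 2. Models of 100 to 1000 CPM lost 0.199% and 0.263%. At least 1 read was lost in each library by 66 members, and by 13.1% of the tested models. None was lost in either library by 32 members. Deep models can lose a single read more readily, so that count also reflects depth. No member lost 1% or more in each library, against 4.3% of the tested models and 21 of 1629 models (1.29%) of 100 to 1000 CPM.

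A few members accounted for much of the loss. The 2 that lost the most reads held 55.9% of the members' lost reads in replicate 1 and 45.4% in replicate 2. ACLKA6_015621 lost 588 and 424 reads, 0.964% and 1.00% of its reads on both strands. ACLKA6_000246 lost 456 and 233 reads, or 0.966% and 0.556%. The next, ACLKA6_010672, lost 0.259% and 0.357%. These are also the 3 members with the highest antisense shares by mean. Their lost reads, sense and antisense together, were between 39.6% and 86.3% as many as their antisense reads. ACLKA6_006626 and ACLKA6_009872, with the next highest antisense shares, lost at most 1.23% as many reads as they had antisense reads. In these 2 members nearly all antisense reads therefore lay outside the annotated exons of the other strand. Lost reads can also be a member's own sense reads, so the number lost is not a share of its antisense reads. ACLKA6_004792, for example, lost 67 and 51 reads and had 14 and 9 antisense reads. Over all members the median antisense share was 0.034% for the 32 that lost no read and 0.033% for the others. With unstranded counting each member had between 99.9% and 101% of its sense count.

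The members were spread over the whole range of tag numbers, but lay near one another more often than models at large. The tags ran from 1 to 20053 without a gap, and each block of 2000 held 8 to 18 members, with the fewest in tags 2001 to 4000. Whether consecutive tags lie side by side in the genome was not checked, since no coordinates were used, and the tables list the tags in 353 stretches of consecutive numbers, 75 of which held a member. Another member stood at a neighbouring tag for 4 members (2.61%), against 1.51% of all models next to a member. Within 5 tags this was true of 26 members (17.0%), against 7.01% of all models. Within 10 tags it was true of 49 of 153 members, against 2625 of 20053 models (13.1%). No test was run on these counts.

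The neighbouring tags formed 2 pairs. ACLKA6_001769 and ACLKA6_001770 were both among the 10 highest models, at mean levels of 4172 and 4010 CPM. Their antisense shares differed more than their levels, at 0.0312% and 0.0240% for the first and 0.0916% and 0.0731% for the second. ACLKA6_009817 stood at 1589 and 1646 CPM and ACLKA6_009818 at 2257 and 2280 CPM, each within 1.04-fold between libraries. Reads that map to several places are not in these counts, so the levels of any near-identical neighbours would be understated, and whether the pairs are copies of one another was not tested.

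The most members in any run of 31 tags was 5, in tags 12569 to 12599. These were ACLKA6_012569, ACLKA6_012578, ACLKA6_012580, ACLKA6_012593 and ACLKA6_012599, at mean levels from 1036 to 2105 CPM, a run picked after its values were seen. Their library ratios pointed in different directions: ACLKA6_012580 had 2322 and 1827 CPM, and ACLKA6_012593 had 1841 and 2369 CPM. The tags within 25 of ACLKA6_004814, the model that the ratio limit left out, also picked afterwards, held 4 members. ACLKA6_004792 stood at 1549 and 1610 CPM, ACLKA6_004817 was 1.16-fold higher in replicate 1 at 1254 and 1082 CPM, and ACLKA6_004795 and ACLKA6_004815 were higher in replicate 2. The tags beside ACLKA6_004815 were higher in replicate 2 as well, with 365 and 1594 CPM for ACLKA6_004816. So was ACLKA6_004813, on the other side of ACLKA6_004814, at 92.7 and 1515 CPM. Of the tags beside ACLKA6_004795, ACLKA6_004796 had 525 and 818 CPM, and ACLKA6_004794 was about equal at 4.16 and 4.07 CPM. These 4 members held 0.433% and 0.618% of all sense reads. All models within 25 tags of ACLKA6_004814, with that model included, held 0.945% and 1.75%.

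Models at tags near a member were themselves expressed at higher levels than models at large. Leaving out models above 1000 CPM, the tags directly beside a member had a median of 34.4 CPM, against 26.2 CPM beside models of 100 to 1000 CPM and 6.64 CPM beside all models. Of 301 such neighbours, 286 were detected and 24.9% had at least 100 CPM. Beside models of 100 to 1000 CPM, 90.1% of the neighbours were detected and 13.8% had at least 100 CPM. Beside all models, 66.8% of the neighbours were detected and 8.19% had at least 100 CPM. Farther away, the medians for members and for models of 100 to 1000 CPM were 21.8 and 23.4 CPM at 2 tags, 27.2 and 20.4 CPM at 3 tags, and 13.4 and 13.1 CPM at 10 tags. No test was run on these differences. Models read mostly on the antisense strand in both libraries were seldom among these neighbours. Of 326 such models, 2 (0.613%) were next to a member, against 2.11% of the 13773 tested models. Both had few reads: ACLKA6_010623 had 9 antisense and 7 sense reads in replicate 1, and 9 and 3 in replicate 2. ACLKA6_019292 had 25 and 23, then 21 and 20. Whether the low share follows from the higher sense levels of these neighbours was not tested.

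**Figure D5:**
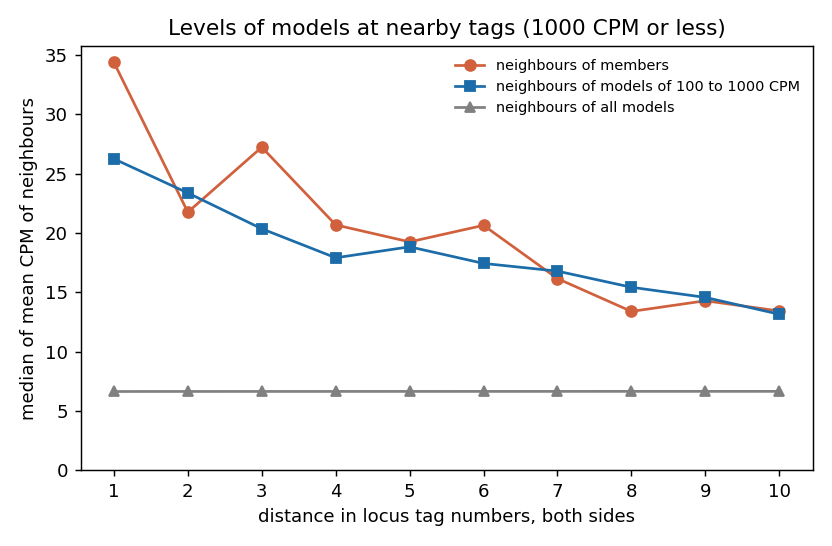
Median of the mean CPM of models at 1 to 10 tag numbers from members, from models of 100 to 1000 CPM and from all models, on both sides, leaving out neighbours above 1000 CPM. Directly beside members the median is 34.4 CPM, against 26.2 and 6.64 CPM beside the other sets, and it falls with distance.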

How the data were processed

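Polyadenylated whole-body RNA of 2 pools was sequenced, 1 library each from 1 µg of RNA. The deposited tables hold raw read counts per gene, made by the authors. The submitters' processing notes name fastp, without a version, and STAR 2.7.11b; their settings are not given in the sources used here. Per the series' design text, BRAKER 3.0.6 predicted the genes from the same reads, so reads and annotation are not independent. The reverse-strand count was taken as sense and the forward-strand count as antisense. The 4 entries that name no gene (26.8% and 30.1% of 63649388 and 55800005 reads) were left out.

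The members, the lists and the tests were chosen with earlier results of these data known. Gene lists by symbol were not analysed here, since the files hold no names. CPM used the total of sense gene reads, and 0.5 was added to each count in ratios. Fisher's exact test with Benjamini-Hochberg adjustment used models that reached 10 reads per library over both strands. It was also run on simulated counts drawn without added variation between libraries, so that run cannot show its behaviour on 2 real pools. The series has 1 group, so no test between groups was run. Replicate numbers come from the titles, nothing pairs the libraries, and p-values measure counting error between 2 libraries. Intervals cover counting error only. Tags named were the 10 highest, those beside the threshold, the 2 largest ratios each way, the highest and lowest antisense shares, the largest losses, calls, and neighbouring members. Tools were Python 3.11.15, scipy 1.17.1, R 4.3.3, edgeR 4.0.16 and DESeq2 1.42.0, the last 2 for scaling alternatives only.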

Additional observations from a re-analysis of the deposited data

How the results depend on the processing

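Of 54 alternative values, 30 stayed within the tolerance (1.5 times for counts, 1 SD between libraries for shares) and 24 moved. The 153 members became 297 at a mean above 500 CPM and 57 above 2000 CPM, holding 41.5% and 18.0% of the sense reads. They held 30.8% when each library had to exceed 1000 CPM, and 22.7% of all reads. TMM, DESeq2 size factors, unstranded counts and other ratio limits gave 152 to 154 members. The antisense share was 0.0763% above 500 CPM, 0.0554% above 2000 CPM, 0.0634% without ACLKA6_015621 and 0.0515% without members that lost any read. Members above 1% antisense numbered 2 above 500 CPM, 0 above 2000 CPM and 0 at a threshold of 5%, and 1 model above 500 CPM lost at least 1%. Members beside another were 27 above 500 CPM, 2 above 2000 CPM and 26 within 5 tags. The 4 antisense calls became 2 with no minimum of reads and 14 by adjusted p alone, and the 6 members 1.5-fold apart became 1 at 2-fold. Without replicate 1 or without replicate 2, the number of members ranged from 152 to 155, their share of reads from 32.0% to 32.1%, their antisense share from 0.0631% to 0.0721%, members above 1% antisense from 1 to 2, those losing at least 1% from 0 to 1 and those beside another from 4 to 9. Leaving out the members within 25 tags of ACLKA6_004814, an alternative chosen after seeing the data, kept 149 members with 31.2% of the reads. Causes of the moves were not tested beyond the changed membership itself. No paired analysis was possible because both libraries belong to 1 group.

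With 2 libraries, each SD rests on 1 difference. Antisense shares below 0.02% rest on few reads, 1 in replicate 2 for ACLKA6_014806 and ACLKA6_001409.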
